A study of Mus musculus with 6 samples.

Results

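Type I interferon response genes were followed in early blood progenitors of mice that had received pIpC, a synthetic double-stranded RNA that induces interferon, with and without deletion of Cebpa. The set is a list of 43 genes, chosen by name for their known induction by type I interferon, with earlier results of these data known. Of these, 39 had at least 1 row of the array that names them alone, out of 19938 genes measured in that way. Isg15, Oas1g and Gbp2 were read only in rows shared with another gene, and Ifi44 was not analysed here, so these 4 have no values. The row with the highest mean was kept for each gene, and all values are log2 intensities of RMA, a method that levels the arrays and summarises the probes of a gene.

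The cells were LSK CD150- cells sorted from bone marrow, that is, cells without markers of mature lineages, with Sca-1 and Kit on their surface and without CD150. Controls were 3 Cebpafl/fl mice, whose Cebpa alleles are flanked by loxP sites but intact. The deleted group was 3 Cebpafl/fl;Mx1Cre mice, which also carry a Cre recombinase under the promoter of Mx1. Mice of both genotypes were injected with pIpC and killed at day 18, each mouse was read on its own Affymetrix Mouse Gene 1.0 ST array, and neither strain nor age is stated. No uninjected mice were analysed here, so a level in the controls is that of injected mice, and no control carried Cre, so the transgene and the loss of Cebpa cannot be told apart. The question was how far the interferon programme differs between the genotypes at that time and how it varies from mouse to mouse.

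Type I interferons bind a receptor of the chains Ifnar1 and Ifnar2, whose kinases Jak1 and Tyk2 activate Stat2. With Irf9 it takes part in a complex that binds response elements near the start of its target genes. The targets encode sensors of viral RNA, enzymes and membrane proteins that block viral replication, and regulators that raise or end the signal. In blood-forming stem cells, interferon is known to push quiescent cells into cycle, and pIpC uses this pathway to switch on Mx1Cre.

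Cebpa, the deleted gene, which encodes a DNA-binding regulator of myeloid development, read 7.84, 7.85 and 7.73 in control mice a, b and c and 6.37, 5.82 and 6.09 in deleted mice a, b and c. It fell by 1.71 on the log2 scale (SE 0.14, limma adjusted p = 0.00088), with every deleted mouse below every control. The median of all rows lay between 6.16 and 6.23 on the 6 arrays, and 5 of the 39 members had a mean below the median of all gene means, 6.42. Kit, whose product was used in the sort, was read clearly, between 9.23 and 10.3, whereas Slamf1, which encodes CD150, read between 3.48 and 4.86. Cd34 and Cd48, which are not named in the sort, read between 11.2 and 11.6 and between 9.71 and 10.96. Kit and Flt3 fell by 0.75 and 0.71 on the log2 scale in deleted samples and Cd48 rose by 1.00 (limma adjusted p = 0.0270, 0.0469 and 0.0052). Ly6a, which encodes Sca-1, was not analysed here. The labels call the mice female, but 2 genes of the Y chromosome, Kdm5d and Eif2s3y, had values from 8.04 to 8.49 on the 6 arrays, which goes against that label in both genotypes. Cells of other types were followed through their markers. Of 5 genes of CD150-positive and long-term stem cells, Mecom, Hlf and Procr fell by 1.47, 1.44 and 0.97 on the log2 scale (limma adjusted p = 0.00275, 0.00074 and 0.00854), and the mean level of the 5 was 6.81 to 6.96 in controls and 6.06 to 6.39 in deleted samples, while Slamf1 did not pass, with a difference of 0.53. The mean level of 8 neutrophil genes was 6.66 to 6.82 in controls and 5.56 to 5.70 in deleted samples, of which 4 fell, and that of 8 genes of plasmacytoid and other dendritic cells, strong producers of interferon, was 7.10 to 7.25 against 7.04 to 7.11, of which Flt3 fell. Markers of B cells (5.30 to 5.43 against 5.28 to 5.72), T and NK cells (5.81 to 5.96 against 5.92 to 6.10), monocytes (5.90 to 6.13 against 5.96 to 6.13, of which Cd68 fell) and stroma (5.89 to 5.92 against 5.98 to 6.05) had closer ranges. The part of these cells in the results that follow was not tested.

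Most interferon response genes had overlapping values in the 2 genotypes, and 1 gene passed the test. Of the 39 members, 1 rose and none fell at a limma adjusted p under 0.05, Rtp4. That is 2.56%, where 1.43% of all genes passed, 0.702% higher and 0.732% lower. At an unadjusted p under 0.05, 10 members were higher, or 25.6%, against 9.1% of all genes, and 2 were lower, or 5.13%, against 6.77%. In 8 members, 20.5%, all deleted mice read above all controls, as did 12.5% of all genes, and in 3 members, 7.69%, all read below, against 8.68% of all genes. The values of the other 28 members overlapped between the genotypes. The median log2 difference, deleted minus control, was 0.10 over the members and 0.03 over all genes, and 27 members (69.2%) had a positive difference, as had 56.5% of all genes. Without deleted mouse a, the median of the members was 0.03, that of all genes 0.04, and 22 members were positive. The list was chosen with earlier results of these data known, so these shares describe it and are no independent support.

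**Figure D1:**
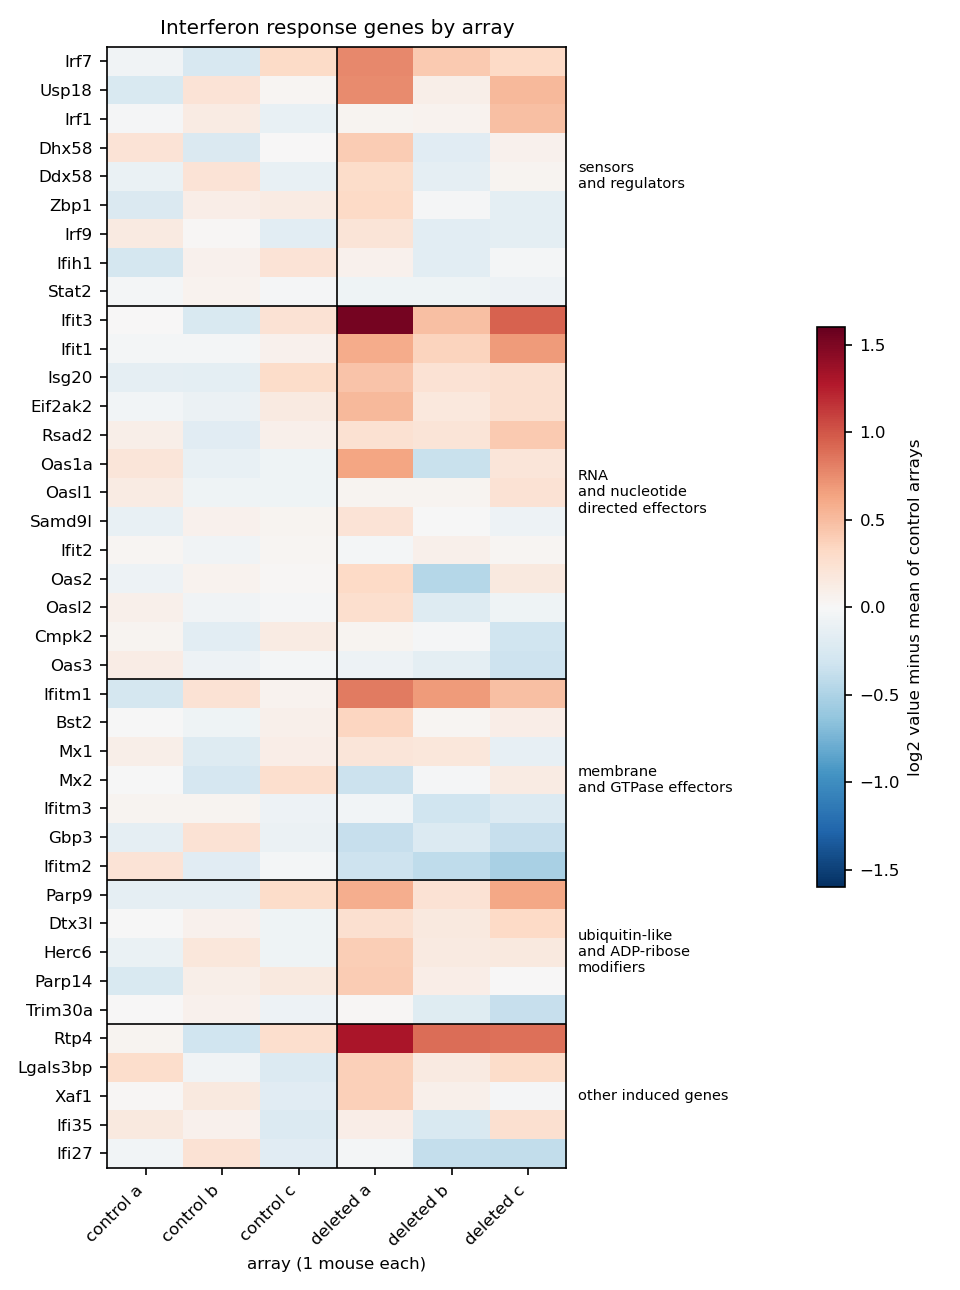
Each row is 1 of the 39 interferon response genes and each column the array of 1 mouse, with colour giving the log2 value minus the mean of the 3 control arrays. Genes are grouped by role and, within a role, ordered by their difference. Rtp4, Ifit3, Ifit1 and Ifitm1 are red on all 3 deleted arrays, Ifitm2 and Gbp3 are blue on all 3, and deleted a is the reddest column.

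Rtp4 encodes a receptor transporter protein that is induced by interferon and acts against flaviviruses. Its gene spans positions 23520219 to 23614222 of chromosome 16 (GRCm38.p6). It read 9.84, 9.48 and 10.06 in control mice a, b and c and 11.11, 10.69 and 10.67 in deleted mice a, b and c. Every deleted mouse lay above every control. The means were 9.80 ± 0.29 and 10.82 ± 0.25 (SD, n = 3 each), a 2.04-fold rise (95% interval 1.56 to 2.65) or 1.03 ± 0.17 (SE) on the log2 scale, with a limma adjusted p of 0.0241. Permuting the 6 values exactly, two-sided, gave p = 0.1, and no smaller value can arise from 3 against 3. The difference lay between 0.87 and 1.16 when single arrays were left out, but the call was lost without control a (adjusted p = 0.0654), control b (0.0781), deleted a (0.0675) or deleted b (0.0700). Each array read pooled cells, so fewer cells that express a gene and less RNA per cell cannot be told apart here or below.

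Among the regulators of the response, none of 9 members passed the test. Irf7 encodes the transcription factor that amplifies interferon production. It read 5.69, 5.49 and 6.05 in controls and 6.52, 6.17 and 6.06 in deleted mice a, b and c. The groups did not overlap, although control c and deleted c differed by very little. The log2 difference was 0.50 ± 0.17 (SE, limma adjusted p = 0.183), and controls lay below the median of all values, 6.20. Usp18, the protease that removes Isg15 from proteins and shuts off signalling at the receptor, read 6.82, 7.27 and 7.09 in controls and 7.82, 7.16 and 7.58 in deleted mice. Deleted mouse b lay inside the control range, and the difference was 0.46 ± 0.18 (SE, adjusted p = 0.249).

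The components that carry the signal to DNA did not pass the test either. Stat2 read 7.13, 7.21 and 7.13 in controls and 7.08 in each deleted mouse, a log2 difference of -0.07 with a 95% interval from -0.28 to 0.14. The deleted values lay just below the lowest control. Irf9, its DNA-binding partner, read 7.88, 7.76 and 7.57 in controls and 7.94, 7.57 and 7.58 in deleted mice, with a difference of -0.04 and an interval from -0.34 to 0.27. Limma adjusted p-values were 0.772 for Stat2 and 0.924 for Irf9, and both differences turned positive after quantile scaling (0.0006 and 0.0149), that of Irf9 after median scaling too (0.0093). The cytosolic sensors Ifih1 and Ddx58, which detect viral double-stranded RNA, their regulator Dhx58, the nucleic acid sensor Zbp1 and the transcription factor Irf1 had differences from -0.04 to 0.20, all with overlapping groups. Irf1 had a second row, with a lower mean, whose difference was -0.40, so its rows disagreed in direction.

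The largest difference after that of Rtp4 lay in the Ifit genes, which encode proteins that bind viral RNA by its 5′ end and stop its translation. Ifit1, Ifit2 and Ifit3 lie within 99.5 kb on chromosome 19. Ifit3 read 6.74, 6.49 and 6.96 in controls and 8.26, 7.22 and 7.67 in deleted mice a, b and c. The groups did not overlap, and deleted mouse a stood 0.59 above the next deleted mouse. The means were 6.73 ± 0.24 and 7.72 ± 0.53 (SD, n = 3 each), a log2 difference of 0.99 ± 0.23 (SE) that did not pass (limma adjusted p = 0.0772). It was 0.71 without deleted a and 1.24 without deleted b.

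Ifit1 varied less within each genotype. It read 6.96, 6.96 and 7.06 in controls and 7.58, 7.34 and 7.68 in deleted mice, again without overlap. The log2 difference of 0.54 ± 0.12 (SE) had an adjusted p of 0.0573. It passed when genes below the lower quartile of intensity (0.0456) or below its median (0.0381) were left out. It also passed under quantile, median and cyclic loess scaling (0.0377, 0.0446 and 0.0493). It did not pass when any single array was left out (0.0683 to 0.173). Nor did it pass with a replicate block (0.0676), array weights (0.0616), every deposited row (0.168) or the pooled-variance test (0.264). Ifit2, from the same cluster, did not share the difference: its values were 6.44 to 6.53 in controls and 6.47 to 6.58 in deleted mice, a difference of 0.03 with a 95% interval from -0.19 to 0.25.

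**Figure D2:**
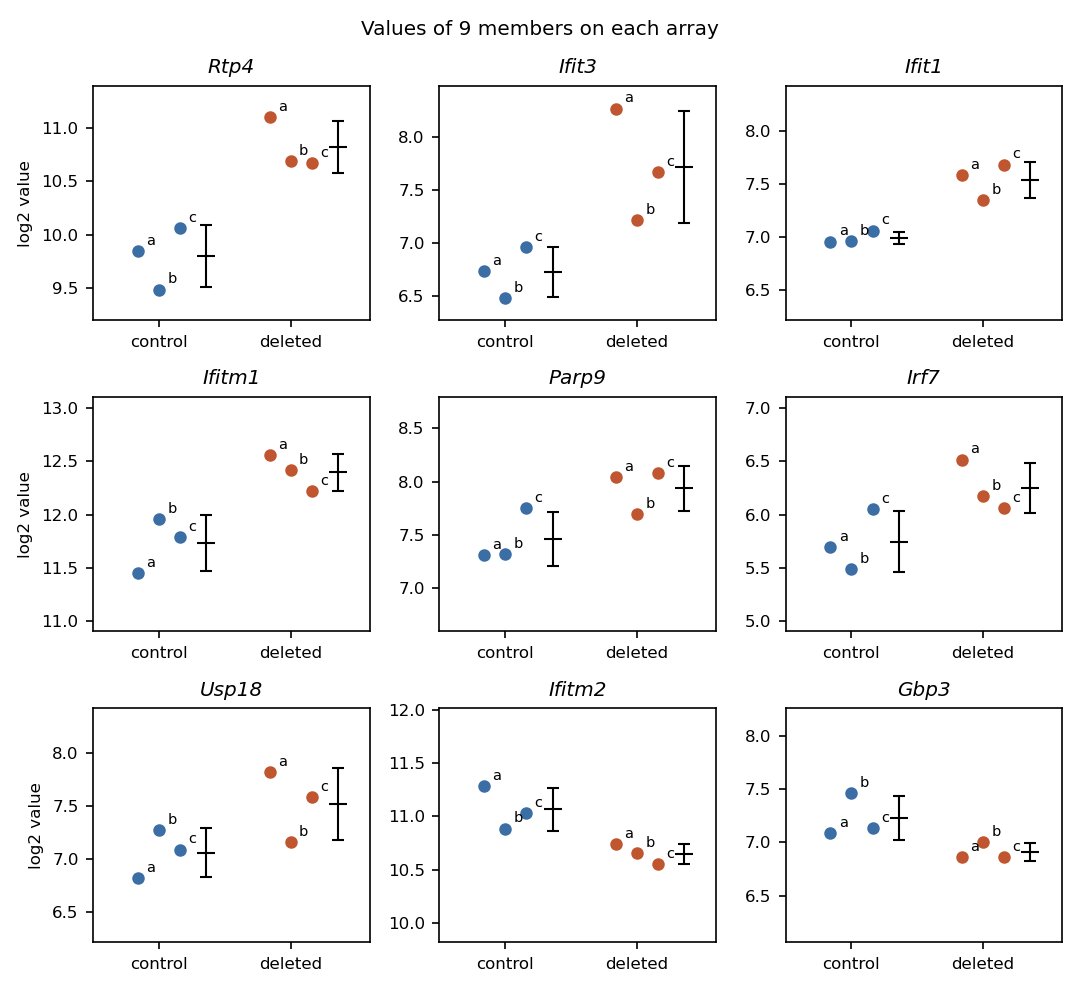
Each panel shows the log2 value of 1 gene on the 3 control (blue) and 3 deleted (orange) arrays, with the mouse letter beside each point and the mean ± SD (n = 3) in black. Every panel spans the same range of 2.2 log2 units. The deleted mice lie above all controls for Rtp4, Ifit3, Ifit1, Ifitm1 and Irf7, below all controls for Ifitm2 and Gbp3, and within reach of them for Parp9 and Usp18.

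The bases before the listed starts of these genes were read from the RefSeq promoter table (GRCm38.p6), because genes of 1 cluster had different values. The core of the interferon-stimulated response element was searched as GAAA followed after any 2 bases by another GAAA, on both strands, so it appears as TTTC repeats where it lies on the other strand. Of the 39 members, 29 matched the table, and 10 of them (34.5%) held the core within 250 bases before a listed start, against 3.46% of all 27025 genes of the table. The sites below are shown because they lie before a listed start of genes with positive (Ifit1, Ifit3), negative (Ifitm2, Gbp3) or small (Bst2, Oas1a) differences, with the core in capitals. For Ifit3, Ifitm2, Oas1a and Gbp3 that start is an inner one. The sites of Ifit3 and Ifitm2 lie inside the annotated span of the gene. The windows of Oas1a and Gbp3 overlap the first bases of theirs, and nearly all of the joined Oas1a core lies inside its span. Both Ifit1 windows overlap the annotated spans of Ifit1bl1 and Ifit1bl2. Overlapping cores are joined.
Ifit1, chr19:34640775-34640804, plus strand: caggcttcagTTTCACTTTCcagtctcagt
Ifit1, chr19:34640794-34640823, plus strand: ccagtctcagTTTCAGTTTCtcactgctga
Ifit3, chr19:34583363-34583392, plus strand: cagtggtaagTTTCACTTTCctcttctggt
Ifit3, chr19:34583397-34583426, plus strand: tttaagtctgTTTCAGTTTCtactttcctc
Bst2, chr8:71537567-71537622, minus strand: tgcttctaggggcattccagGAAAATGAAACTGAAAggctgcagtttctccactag
Oas1a, chr5:120907526-120907552, minus strand: ttctcggGAAATGGAAACTGAAAatct
Ifitm2, chr7:140955988-140956017, minus strand: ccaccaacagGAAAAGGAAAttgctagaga
Gbp3, chr3:142559992-142560021, plus strand: gacacagTTTCAGTTTCTATTTCccagatc

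Ifit1 and Ifit3 each held 2 separate cores with the same letters, at 104 and 85 bases before the start of Ifit1 and at 156 and 122 bases before the inner start of Ifit3. Ifit2 held none in its 250 bases. Both signs occurred with the core: of the 10 with it, 5 read higher and 5 lower in deleted samples, with a median log2 difference of 0.04 and a range from -0.42 to 0.99. Of the 19 members without it, 14 read higher and 5 lower, with a median of 0.11. Rtp4 is among 10 members without an entry in the table. The gamma-activated site was searched as TTC and, after any 3 bases, GAA, and was found before 6 of the 29 members (20.7%), against 8.13% of all genes. A match describes letters in a window and not binding.

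The other effectors that act on RNA and nucleotides showed smaller differences. Eif2ak2, the kinase PKR that halts translation on sensing double-stranded RNA, read 8.17 to 8.40 in controls and 8.43 to 8.78 in deleted mice, and Rsad2, the antiviral enzyme viperin, 5.94 to 6.21 against 6.33 to 6.53, both without overlap. Neither passed (limma adjusted p = 0.255 and 0.265). Isg20, an RNA exonuclease, had a difference of 0.31 with overlapping groups. Cmpk2, a nucleotide kinase whose gene lies within 37.1 kb with Rsad2 on chromosome 12, read -0.10 in difference, and Samd9l 0.04.

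The oligoadenylate synthetases, which make the messenger that activates RNase L, overlapped between the genotypes. Oas2 read 7.38, 7.51 and 7.48 in controls, a spread of 0.07 (SD), and 7.77, 7.001 and 7.62 in deleted mice a, b and c, a spread of 0.41. Oas1a read 8.01, 7.70 and 7.75 in controls and 8.45, 7.46 and 8.01 in deleted mice. For both genes deleted a was the highest and deleted b the lowest of the 6 mice. Oasl2 also had a wider spread among deleted mice, 0.24 (SD) against 0.07. The log2 differences were 0.00 for Oas2 (95% interval -0.40 to 0.41) and 0.16 for Oas1a (-0.33 to 0.64). Oas3, Oasl1 and Oasl2 had differences of -0.19, 0.11 and -0.01, and of Oas1a and Oas1g only the row of Oas1a alone was used, since their transcripts are similar enough to share another row.

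The membrane proteins of the Ifitm family, which block the fusion of viruses with cell membranes, had differences of both signs although Ifitm1, Ifitm2 and Ifitm3 lie within 55.9 kb on chromosome 7. Ifitm1 read 11.45, 11.96 and 11.79 in controls and 12.56, 12.42 and 12.22 in deleted mice a, b and c, all above the controls. Ifitm2 read 11.28, 10.88 and 11.03 in controls and 10.74, 10.66 and 10.55 in deleted mice, all below them. Ifitm3 overlapped, with 12.78, 12.78 and 12.66 against 12.69, 12.42 and 12.52. The log2 differences were 0.67 ± 0.15, -0.42 ± 0.13 and -0.20 ± 0.11 (SE), with limma adjusted p-values of 0.0661, 0.145 and 0.431.

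Ifitm1 passed with an intensity trend in the prior (adjusted p = 0.0376) and without genes below the median intensity (0.0446). It also passed under quantile and median scaling (0.0420 and 0.0492) and with the mean of its rows (0.0370). It did not pass when any single array was left out (0.0874 to 0.168), under cyclic loess scaling (0.0523) or without genes below the lower quartile (0.0539). Nor did it pass with a replicate block (0.0895), every deposited row (0.193) or the pooled-variance test (0.317). Its second row had a difference of 0.87, also without overlap. The other rows of Ifitm2 had differences of -0.13 and -0.27 with overlapping groups. The genes of this family are similar in sequence, so how the rows divide their transcripts is uncertain.

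None of the interferon-induced GTPases passed the test. Gbp3, a guanylate-binding protein that acts against intracellular pathogens, read 7.09, 7.46 and 7.13 in controls and 6.86, 7.01 and 6.86 in deleted mice, all below the controls. The log2 difference was -0.32 ± 0.12 (SE, limma adjusted p = 0.249). Mx1, an antiviral dynamin-like GTPase whose promoter drives the transgene, read 4.77, 4.47 and 4.77 in controls and 4.87, 4.86 and 4.54 in deleted mice, with overlap and a difference of 0.08. These values lay below the lower quartile of all gene means, 5.36. Mx2 read 5.71 to 6.32 over all mice with a difference of -0.07. Bst2, the tether that holds budding virus on the cell surface, had a difference of 0.16, with deleted mouse a at 9.003 and the other 5 mice between 8.59 and 8.77.

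Among the modifiers of proteins, 4 of 5 members had a positive difference and none passed. Parp9 and Dtx3l form a complex of an ADP-ribosyltransferase-like protein and a ubiquitin ligase, and with Parp14 they lie within 140.7 kb on chromosome 16. Parp9 read 7.31, 7.32 and 7.75 in controls and 8.04, 7.70 and 8.08 in deleted mice, where only control c and deleted b crossed. Its log2 difference was 0.48 ± 0.15 (SE, limma adjusted p = 0.172). Dtx3l did not overlap, with 7.61 to 7.75 against 7.84 to 8.0 and a difference of 0.24, and Parp14 overlapped with 0.17. Herc6, the mouse ligase that attaches Isg15, had a difference of 0.23, and Trim30a, an inducible ubiquitin ligase, -0.18. Of the remaining induced genes, Lgals3bp had a difference of 0.27, Xaf1 0.15, Ifi35 0.04 and Ifi27 -0.27, all with overlapping groups.

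**Figure D3:**
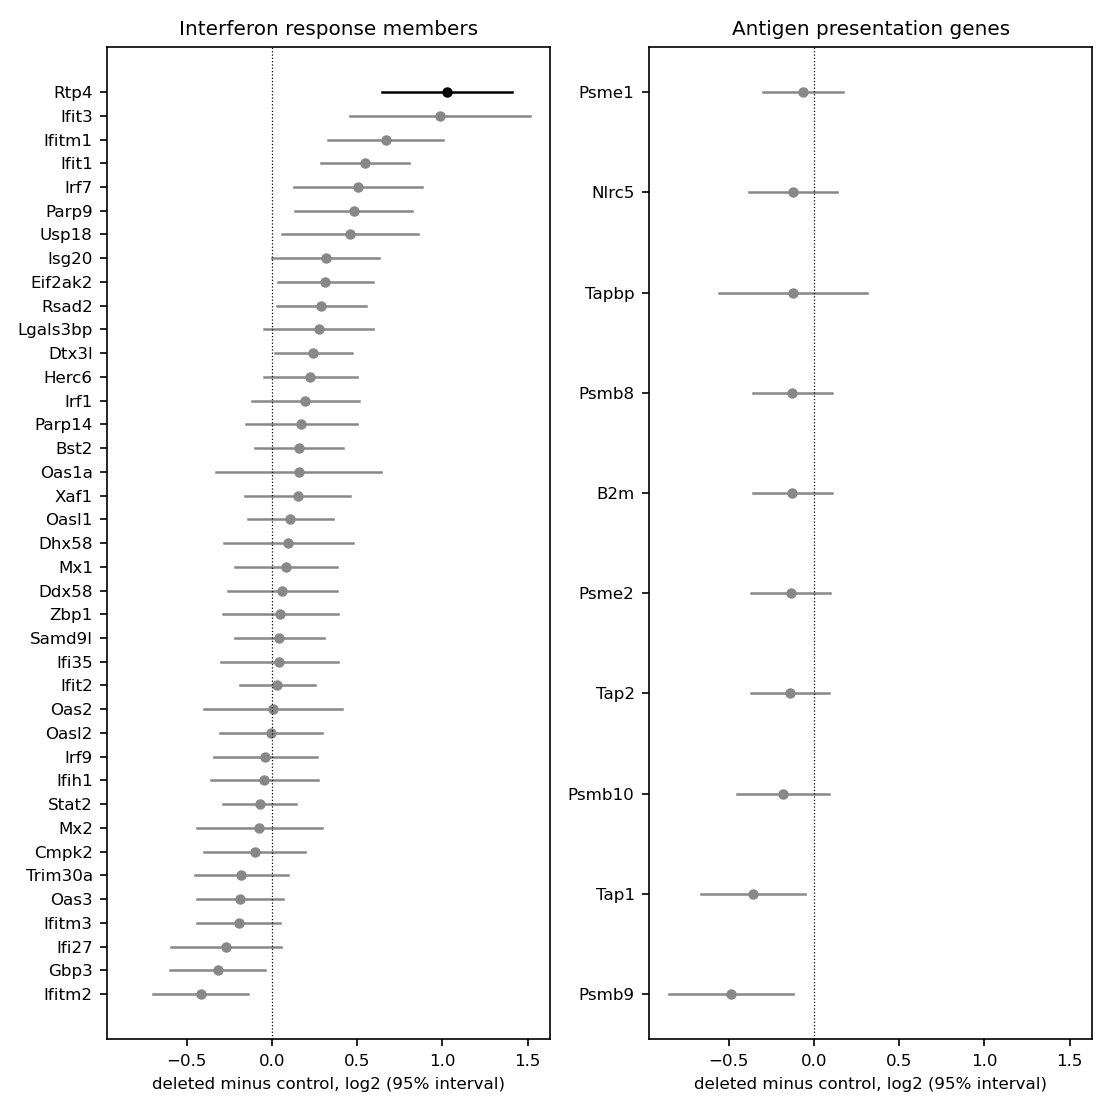
Points give the log2 difference, deleted minus control, and bars its 95% interval from limma, for the 39 members on the left and 10 interferon-regulated antigen presentation genes on the right. Rtp4, in black, is the only gene shown with an adjusted p under 0.05. The members run from -0.42 for Ifitm2 to 1.03 for Rtp4, whereas all 10 antigen presentation genes lie below 0.

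Within the deleted genotype, 1 mouse had the highest values of most members. Of the 39 members, 29 (74.4%) read highest in deleted mouse a among the 3 deleted mice, 2 in deleted b and 8 in deleted c. Over all genes, deleted a was the highest of the 3 in 29.6%. The median member lay 0.16 above the mean of its genotype in deleted a, 0.09 below it in deleted b and 0.05 below it in deleted c, where the medians of all genes were -0.02, 0.00 and 0.01. The members that were highest in another deleted mouse were Irf1, Ifit1, Oasl1, Rsad2, Mx2, Parp9, Dtx3l and Ifi35 in c, and Ifit2 and Gbp3 in b. Among controls, 12, 13 and 14 members were highest in a, b and c, and the medians were 0.00, -0.03 and 0.02. The number highest in deleted a was 27 to 29 with other scalings. This is a description over genes that share 3 arrays, without a test, and the labels give no reason to group the mice.

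**Figure D4:**
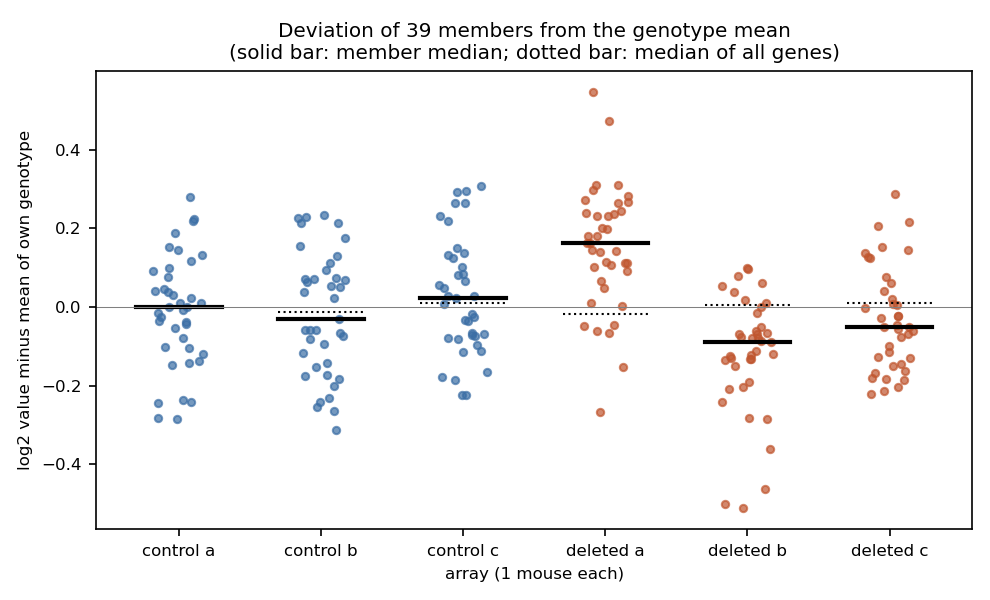
Each point is 1 of the 39 members, plotted for each array as its log2 value minus the mean of the 3 arrays of the same genotype. Solid bars mark the median of the members and dotted bars the median of all genes. The members of deleted a lie mostly above 0, with a median of 0.16, and those of deleted b mostly below, with a median of -0.09.

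Deleted mouse a was the highest deleted mouse for most further induced and antigen presentation genes, but not for most interferon genes themselves or receptors. Of 35 further induced genes listed beside the members, 21 were highest in deleted a, with a median of 0.16 above the genotype mean, and of 10 antigen presentation genes 7 were. Of 14 interferon genes themselves, 4 were highest in deleted a and 7 in deleted b, and of 7 receptors and kinases 2 were highest in a. Of 10 sensing genes 5 were highest in a, of 6 transcription factors 2 and of 7 feedback genes 2. Over all genes, 29.6% were highest in deleted a. The interferon genes themselves were dim, with mean levels of 5.55 to 5.69 on the deleted arrays against a median of all values of 6.20. The order of the mice in them is therefore uncertain. Among cell type markers, deleted a was the highest deleted mouse for 17 of 51 genes. By group these were 3 of 8 dendritic cell genes, 4 of 8 neutrophil genes, 0 of 6 monocyte genes and 0 of 5 B cell genes. The others were 3 of 5 LSK genes, 1 of 5 long-term stem cell genes, 2 of 7 T and NK cell genes, 1 of 2 erythroid genes and 3 of 6 stroma genes. The dendritic cell genes highest in deleted a included Bst2, which is also a member. Cebpa itself was highest of the deleted mice in a, at 6.37. The part of these cells and of the remaining Cebpa signal in the pattern was not tested.

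Of the rest of the pathway, 89 of 104 listed genes were measured, and 2 rose and none fell, where 1.43% of all genes passed. Ptpn1, a phosphatase that acts on Jak2 and Tyk2, read 7.35, 7.03 and 7.23 in controls and 7.86, 7.97 and 7.78 in deleted mice, without overlap. It rose 1.59-fold (log2 0.67 ± 0.12 SE, limma adjusted p = 0.0293). Ccl5, a chemokine induced by interferon and inflammation, read 7.63, 7.97 and 8.03 in controls and 8.62, 8.73 and 8.39 in deleted mice, and rose 1.63-fold (log2 0.71 ± 0.14 SE, adjusted p = 0.0426). Ptpn1 kept its call only without control a (adjusted p = 0.0447) when single arrays were left out, with values up to 0.103 otherwise. Ccl5 lost it without any 1 of the 6 arrays (0.0554 to 0.141).

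Of 14 interferon genes measured, none passed, their values ran from 3.54 to 8.03 and their differences from -0.33 to 0.56, and Ifnb1, the first interferon made after sensing of double-stranded RNA, read between 4.002 and 4.53 on all arrays. The receptor chain Ifnar1 read 7.99, 8.01 and 7.77 in controls and 8.01, 7.68 and 7.81 in deleted mice, and Ifnar2 10.41, 10.51 and 10.51 against 10.81, 10.62 and 10.83, which did not overlap. Their log2 differences were -0.09 and 0.28 (limma adjusted p = 0.778 and 0.237). Tlr3, the endosomal receptor of pIpC, read between 5.06 and 5.40 on all arrays, and none of 10 sensing genes and none of 6 transcription factors passed. Of 7 feedback genes, Ptpn1 rose, 6 had a positive difference, and Socs3, an inhibitor of Jak kinases named after its value was seen, had one of 0.44 (adjusted p = 0.153).

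Genes of antigen presentation by MHC class I, which respond to interferon as well, had lower means in deleted samples, mostly with overlapping groups. All 10 measured genes had a negative log2 difference, from -0.49 to -0.06 with a median of -0.13, and none passed the test. In 3 of them all deleted mice read below all controls, as did 8.68% of all genes, and 7, Psmb9 among them, overlapped. Over all genes, 56.5% had a positive difference. Among genes at or above the median intensity, where all 10 lay, it was 51.0%. Psmb9, a catalytic subunit of the immunoproteasome, read 11.66, 11.76 and 11.50 in controls and 11.52, 11.06 and 10.88 in deleted mice, with a difference of -0.49 ± 0.16 (SE, limma adjusted p = 0.184). Tap1, a chain of the peptide transporter, read 7.90, 7.83 and 7.78 against 7.76, 7.25 and 7.42, without overlap, with a difference of -0.36 ± 0.14 (SE, adjusted p = 0.238). Both were named after their values were seen. With quantile normalization, and without control a or deleted b, 9 of the 10 were negative. In the wider list of 35 induced genes, 1 rose and none fell, 18 had a positive and 17 a negative difference. Uba7, the enzyme that activates Isg15, read 7.55, 7.41 and 7.28 in controls and 7.03, 6.89 and 6.62 in deleted mice, with a difference of -0.57 ± 0.13 (SE, adjusted p = 0.0702, and 0.0469 without genes below the median intensity). Ms4a6b, a membrane protein, read 8.02, 8.26 and 8.47 against 7.87, 7.71 and 7.36 (-0.60 ± 0.16 SE, adjusted p = 0.104).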

How the data were processed

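The authors deposited log2 values of 35556 probe sets on 6 arrays made, per the submitters' processing notes, with RMA and Affymetrix Expression Console 1.1.2, whose settings no source states. The values were used as deposited, with no filter on dim rows. Rows were named through the platform's annotation table (21789 rows name 1 gene, 1621 several, 12146 are unnamed here), and positions and promoters came from RefSeq tables of GRCm38.p6, which held all 39 members by gene ID. The comparison of genotypes used lmFit and eBayes of limma 3.58.1 (R 4.3.3) without a block; two-sided p-values were adjusted by Benjamini-Hochberg over 19938 genes, called under 0.05; the fit was also tested on simulated data. Tables and figures used Python 3.11.15, pandas 2.3.3 and matplotlib 3.10.9. Replicates are separate mice, and their number limits the precision of every value.

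The members and gene lists were chosen with earlier results of these data known. Members given with the value of every mouse were those past the threshold, the 8 with the smallest unadjusted p otherwise, the 4 with the highest mean, the 4 with the largest SD within a genotype, and Mx1, Irf7, Irf9, Stat2 and Isg15; other pathway genes were those past the threshold, the 4 with the smallest p, Ifnar1 and Ifnar2. Isg15 has no row of its own here, and 1 gene of the rule is not reported here. Alternatives were other priors, intensity filters, scalings, row choices, thresholds, array weights, a replicate block, a test without the moderated variance, and the omission of single arrays.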

Additional observations from a re-analysis of the deposited data

How the results depend on the processing

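Of all genes, 286 changed in the main setting, with 49.0% of them higher (61.6% after quantile and 65.8% after median scaling). The count was 41 at a threshold of 0.01, 676 at 0.10, 438 without genes below the median intensity, 13 with every deposited row tested, 0 with the pooled-variance test (2585 at an unadjusted p under 0.05, against 3164 in limma) and 53 to 250 when single arrays were left out. The count of members was 1, and 0 to 1 when single arrays were left out. It was 0 at 0.01, with every deposited row and with the pooled-variance test (7 members unadjusted, where limma had 12), 2 with an intensity trend, at or above the 25th percentile, after cyclic loess, with the mean of rows and with the replicate block, 3 without genes below the median intensity and after quantile and median scaling, and 4 at 0.10. The count of other pathway genes was 2, and 0 at 0.01, with every deposited row, with the pooled-variance test and with the replicate block, and 0 to 1 when single arrays were left out. A pairing of the samples by mouse letter was not evident over all genes: the correlations of same-letter deviations were -0.01, -0.04 and 0.06. The block gave 274 genes. The correlations were not taken over the members alone, so they cannot exclude a pairing there. With the block, Ifit3 passed (adjusted p = 0.0399), and Ptpn1 (0.0517) and Ccl5 (0.0586) did not. The cause of these shifts was not tested, except that a threshold or a row set changes the count by construction.

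Directions turned for 5 of the genes given with a test, none of them called: Oas1a (-0.0789 without deleted a, up to 0.4135 without deleted b), Oas2 (-0.0334 with array weights, and -0.1502 to 0.2356 when single arrays were left out), Mx1 (-0.0174 without control b, up to 0.1903 without deleted c), Irf9 (0.0149 after quantile and 0.0093 after median scaling, and -0.1613 to 0.0337 without single arrays) and Stat2 (0.0006 after quantile scaling). The median difference of the members was 0.03 to 0.18 over the alternatives, where the main setting gave 0.10. The SD of the member medians among the deleted mice, 0.135, exceeds that value, so it cannot show that the median held. The number of mice, 3 per genotype, limits the precision, and no detection calls were used, so the low values of Mx1 and Ifnb1 were not set against background.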

Other observations

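Further interferon-induced genes outside the members, all named after their values were seen, had differences of both signs within families and none passed the test (limma). Ifi27l2a read 7.88, 7.73 and 8.63 in controls and 9.08, 8.63 and 8.90 in deleted mice a, b and c. The groups did not overlap, but control c (8.626) and deleted b (8.632) nearly tied. The log2 difference was 0.79 ± 0.22 (SE, limma adjusted p = 0.119). Among GTPases that act on the vacuoles of intracellular pathogens, Irgm1 had a difference of 0.50 and Iigp1 one of -0.57, both with overlapping groups. Gbp8 lay lower in every deleted mouse, like Gbp3, with a difference of -0.39, whereas Gbp4, Gbp5, Gbp7 and Gbp9 overlapped. In the Schlafen family, Slfn1 lay below (-0.34) and Slfn4 above (0.24) all controls in every deleted mouse.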
